A study of Mus musculus with 17 samples.

Results

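The YAP/TAZ pathway was followed through 9 genes in cultured mouse neural retinal progenitor cells (mNRPCs). The genes were chosen by name, with earlier results of these data known, and not by a threshold on their values. They were the target genes Ctgf, Cyr61, Ankrd1 and Amotl2, the coactivator genes Yap1 and Wwtr1, the TEAD factor genes Tead1 and Tead2, and the kinase gene Lats2. All 9 were found by symbol among 18836 genes listed in at least 1 of 17 libraries, and all 9 passed the filter on low values (mean FPKM not under 1 across 16 cultured libraries) that left 11272 genes for testing. The mNRPCs came from neural retina of adult C57BL/6 mice and had been expanded on Matrigel in basic medium with bFGF and CHIR99021. They were sequenced once as a day 0 control, labelled as untreated, and once per condition after 1, 3, 5 and 7 days in basic medium alone (BM), with bFGF (B), with CHIR99021 (C) or with both (BC). The paper describes the day 0 control as cells cultured in BM. No transgene or deletion was named for these cells, and they are a culture selected by growth in the medium that the BC group kept. bFGF, basic fibroblast growth factor, signals through FGF receptors, and CHIR99021 inhibits the kinase GSK3, which lets β-catenin accumulate.

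Yap1 and Wwtr1 encode YAP and TAZ, transcriptional coactivators that bind no DNA themselves and act on promoters and enhancers through TEAD factors. The Hippo kinases, of which LATS2 is the last in the chain, phosphorylate YAP and TAZ and keep them in the cytoplasm. Cell density, matrix stiffness and actin tension also set how much YAP and TAZ reach the nucleus, so the amount of coactivator mRNA is a separate quantity from its activity. In the retina YAP is known from progenitor proliferation and from Müller glia. Ctgf and Cyr61 encode secreted matricellular proteins of the CCN family, Ankrd1 a nuclear and sarcomeric ankyrin repeat protein, and Amotl2 an angiomotin that binds YAP and limits it, as LATS2 does.

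In the GRCm38.p6 (mm10) assembly of RefSeq, Ctgf (Ccn2 in RefSeq, Entrez gene 14219) lies at chr10:24595442-24598683, Cyr61 (Ccn1, Entrez gene 16007) at chr3:145646971-145649985, Ankrd1 (Entrez gene 107765) at chr19:36111965-36119844 and Amotl2 (Entrez gene 56332) at chr9:102717091-102733418. Yap1 (Entrez gene 22601) lies at chr9:7931999-8004638, Wwtr1 (Entrez gene 97064) at chr3:57455644-57575910, Tead1 (Entrez gene 21676) at chr7:112679356-112906784, Tead2 (Entrez gene 21677) at chr7:45215792-45233468 and Lats2 (Entrez gene 50523) at chr14:57689662-57746212. RefSeq promoter sequences were matched for 7 of the 9 genes, Ctgf and Tead1 being the others. TEAD factors recognise the letters GGAATG, and the 250 bases before the transcript start were searched for them on both strands.

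The matches are shown because TEAD factors are the partners through which YAP and TAZ reach DNA. The Cyr61 sequence, which overlaps no exon annotated by GENCODE, is given whole as an example, and the others as 30 bases around each match. Each is written 5′ to 3′ on the strand of its gene, with the match in capitals, as GGAATG or as its reverse complement CATTCC.
Cyr61, chr3:145649986-145650235, minus strand: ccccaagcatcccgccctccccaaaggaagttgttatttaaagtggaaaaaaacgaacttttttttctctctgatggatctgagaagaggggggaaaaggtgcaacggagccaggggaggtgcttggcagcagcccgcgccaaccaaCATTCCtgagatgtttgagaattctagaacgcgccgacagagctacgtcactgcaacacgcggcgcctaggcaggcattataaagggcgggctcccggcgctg
Ankrd1, chr19:36120037-36120066, minus strand: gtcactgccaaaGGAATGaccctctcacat
Ankrd1, chr19:36119950-36119979, minus strand: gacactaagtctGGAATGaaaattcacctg
Amotl2, chr9:102717727-102717756, plus strand: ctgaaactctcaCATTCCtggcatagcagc
Yap1, chr9:8004720-8004749, minus strand: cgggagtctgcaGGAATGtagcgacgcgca
Wwtr1, chr3:57576029-57576058, minus strand: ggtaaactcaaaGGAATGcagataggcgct

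The letters GGAATG were thus present before 5 of the 7 genes, against 12.6% of 32851 promoters of the same length. The match began 103 bases before the start in Cyr61, 210 and 123 bases before it in Ankrd1, 65 bases in Amotl2 and 141 bases in Yap1. In Wwtr1 the same match lay 136 bases before the start of the first transcript and 170 bases before that of the other. GENCODE annotates longer first exons of other transcripts over the matches of Ankrd1 and Amotl2, so these lie before the RefSeq start used here but within those transcripts. The Amotl2 match also lies within the RefSeq span of the gene given above. The windows of Tead2 and Lats2 held no match. The AP-1 letters TGANTCA (6.75% of all promoters) and the CArG box bound by SRF (1.47%) were found in none of the 7. These are matches of letters, and binding was not measured.

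Levels are given as FPKM, a fragment count scaled to transcript length and to the mapped reads of the library, which allows levels of different genes to be set side by side. Total expected counts ran from 17571973 to 19428744 per library. Each treatment and day had 1 library, so the spread behind every test below is the departure of the libraries from the fitted effects of bFGF, CHIR99021 and day, and not the spread between cultures. The retinal progenitor list showed Pax6, Six3, Sox2, Nes and Hes1 in every library, whereas Rax stayed below an FPKM of 0.5 in all 17 and Lhx2 reached at most 2.35. The summed FPKM of this list was 109.2 on day 0, 149.5 to 403.9 in BM and C and 96.1 to 206.6 in B and BC. Pax6 made up much of the difference, at 152.0 to 207.0 in BM and C from day 3 and 10.7 to 82.3 in B and BC, and its part in the results below was not tested. Defining markers of photoreceptors (Nrl), pigment epithelium (Rpe65), astrocytes (Gfap), endothelium (Pecam1, Cdh5) and microglia (Aif1, Csf1r) stayed below 0.5 as well. In B and BC 1 other marker reached an FPKM of 1 in each of the pigment epithelium and microglia lists, and in BM and C 1 did in the endothelial list. The summed FPKM of these lists was at most 2.03 and 2.48 in B and BC and 1.27 in BM and C. Of 5 Müller glia markers, Rlbp1 and Slc1a3 were below 0.5 in all 17 libraries, and the summed FPKM of the list was 17.7 on day 0, 15.98 to 191.3 in BM and C and 20.8 to 81.6 in B and BC. The pericyte and fibroblast list differed more between the groups: its summed FPKM over 7 genes was 4.16 on day 0, 15.04 to 159.6 in BM and C and 6.16 to 34.4 in B and BC, mostly Pdgfrb and Col1a1, with Cspg4, Rgs5 and Lum below 0.5 throughout.

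Cyr61 was the highest of the 9 genes in all 17 libraries, with an FPKM between 115.4 and 467.1. Tead2 ranked between 2 and 4 of 9, and Amotl2 between 2 and 5. Yap1 had a median of 56.4 without bFGF, and Tead1 and Wwtr1 lay close together at 39.8 and 39.0, with overlapping ranges (36.0 to 42.9 and 35.0 to 44.1). Lats2 and Ankrd1 were lower, and Ctgf was the lowest of the 9 in 11 libraries although it ranked 3 of 9 in BM on day 7.

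**Figure D1:**
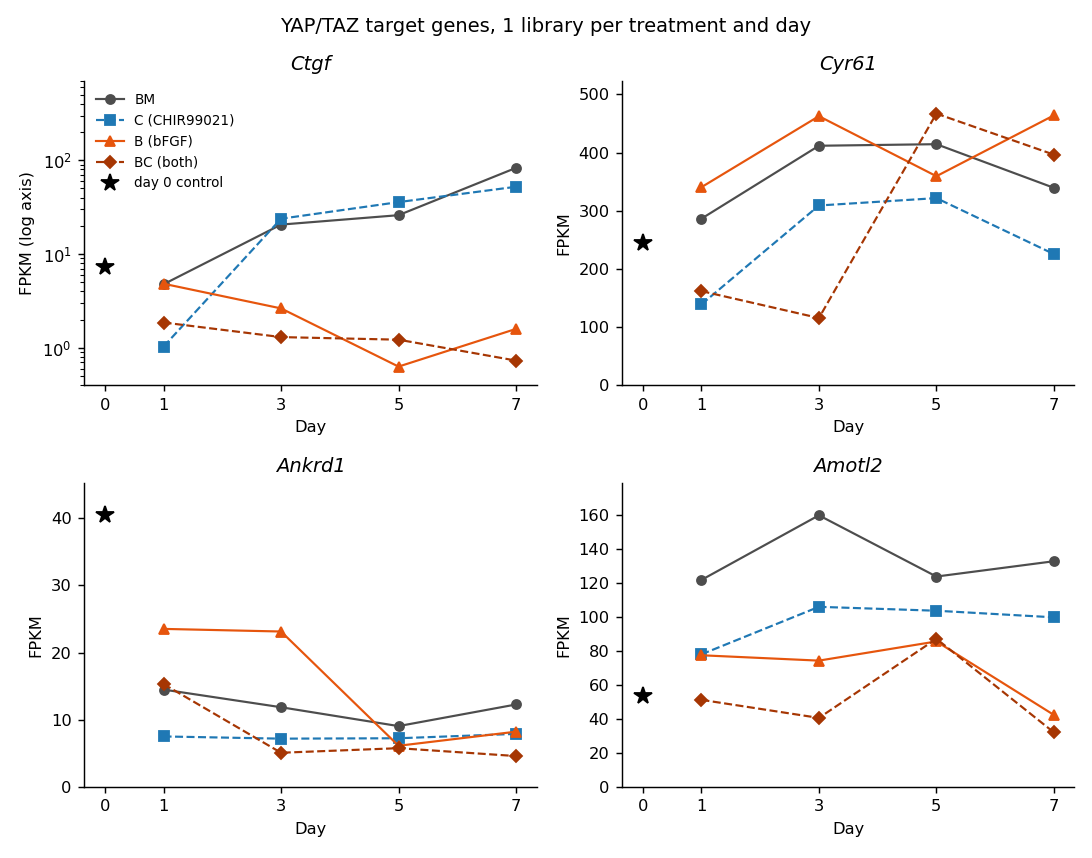
FPKM of the 4 target genes (vertical axis, logarithmic for Ctgf) against day (horizontal axis), with 1 point per library in BM, C, B and BC and a star for the day 0 control. From day 3 the libraries with and without bFGF are apart for Ctgf (at most 2.63 against at least 20.6) and for Amotl2 (at most 87.0 against at least 99.6), and they overlap for Cyr61 and Ankrd1.

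The comparison of B and BC with BM and C asks what bFGF did to these mRNAs. Over days 1 to 7, 5 of the 9 genes passed the test. Ctgf and Amotl2 were lower with bFGF, and Wwtr1, Lats2 and Tead2 were higher. Cyr61, Ankrd1, Yap1 and Tead1 did not pass. Much of the transcriptome moved with bFGF: 68.4% of all tested genes passed, 34.6% higher and 33.9% lower, so 5 of 9 is no larger a share than that of all genes.

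Ctgf was the gene that differed most. Its FPKM in BM was 4.76 on day 1, 20.6 on day 3, 25.96 on day 5 and 83.0 on day 7. In C it was 1.03, 23.8, 35.8 and 52.2 on the same days. In B it was 4.82, 2.63, 0.63 and 1.59, and in BC 1.86, 1.30, 1.22 and 0.73. On day 1 the groups overlapped, and from day 3 the lowest library without bFGF held 889 expected counts of Ctgf against at most 116 in any library with bFGF. The day 0 control, at 7.28, lay above every library of day 1 and between the groups from day 3. The fold between B and BM was 7.83 on day 3, 41.2 on day 5 and 52.2 on day 7, and between BC and C it was 18.3, 29.3 and 71.5. In bulk RNA, fewer Ctgf-expressing cells and less Ctgf mRNA per cell cannot be told apart. Over days 1 to 7 the log2 fold change was -3.46 (SE 0.62, edgeR adjusted p = 0.00195), and it ran from -4.44 to -2.71 under the other settings. The pericyte and fibroblast markers moved the same way: Pdgfrb was 79.4 to 115.0 in BM and C from day 3 and 5.25 to 31.9 in B and BC. Their part in the Ctgf result was not tested.

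Amotl2 was lower with bFGF in 8 of 8 same-day pairs on the FPKM scale, as were 26.1% of all tested genes. Its FPKM in BM was 121.6, 159.6, 123.6 and 132.6 on days 1, 3, 5 and 7, and in C it was 77.9, 105.8, 103.5 and 99.6. With bFGF (B) it was 77.3, 74.2, 85.4 and 42.2, and in BC 51.1, 40.5, 87.0 and 32.0. From day 3 every library with bFGF lay below every library without it. The log2 fold change over days 1 to 7 was -0.68 (SE 0.16, edgeR adjusted p = 0.00338). The difference was largest on day 3 (-1.13, edgeR adjusted p = 0.000161) and day 7 (-1.10, edgeR adjusted p = 6.22e-05). On day 5 it was 0.07 in edgeR (adjusted p = 0.71) and -0.39 (adjusted p = 0.0411) by limma on log2(FPKM + 1), so the direction on that day depends on the scaling.

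That scaling matters for all the smaller effects. On log2(FPKM + 1) the median of all genes stood at -0.25 with bFGF over days 1 to 7, and at -0.04 on day 1, -0.10 on day 3, -0.41 on day 5 and -0.48 on day 7. The TMM factors of edgeR set the median gene near 0 (-0.002 over days 1 to 7). They ranged from 0.754 to 0.816 in the libraries with bFGF on days 5 and 7 and from 1.01 to 1.13 in the other 12. The edgeR values of each gene are therefore relative to the median gene, while the FPKM values are not.

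**Figure D2:**
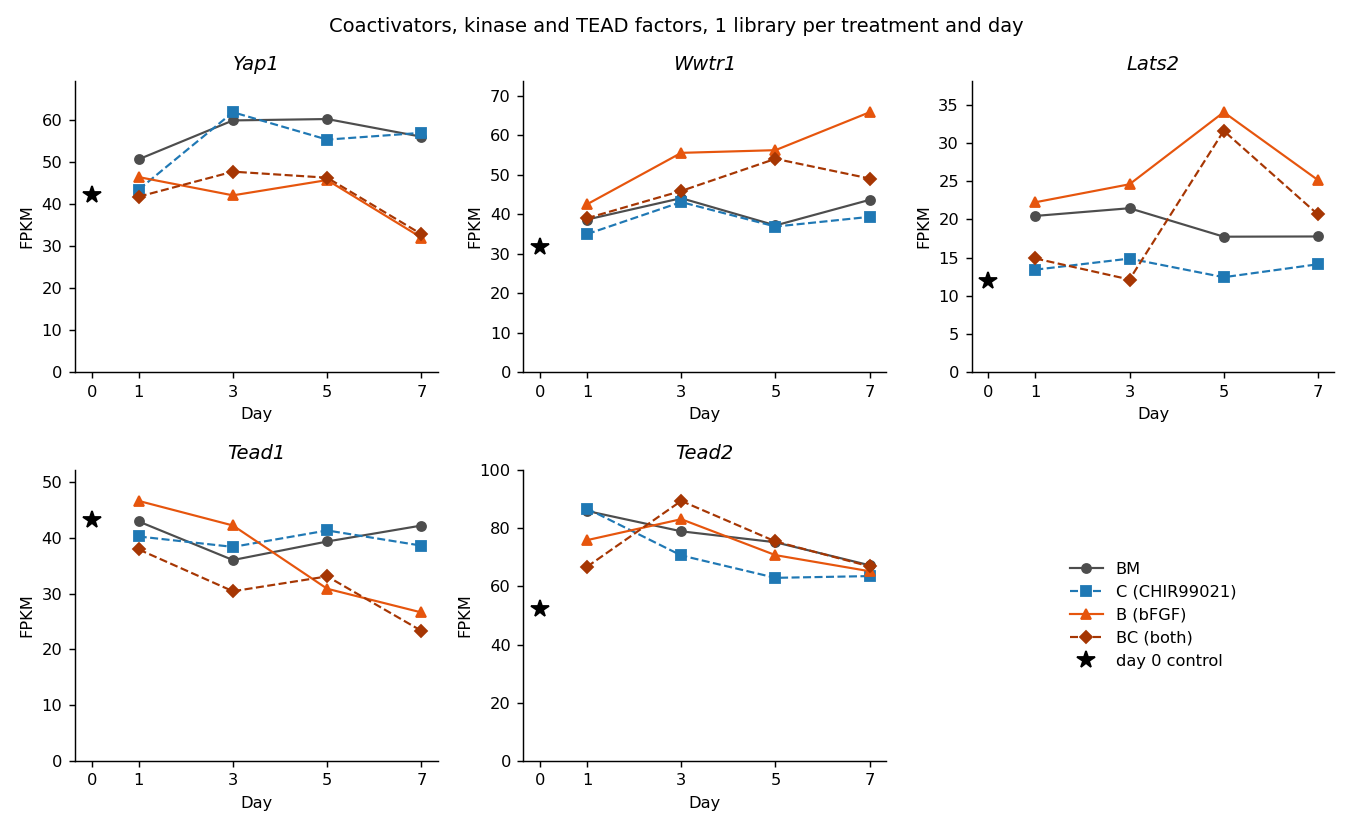
FPKM (vertical axes, from 0) of Yap1, Wwtr1, Lats2, Tead1 and Tead2 against day (horizontal axes), with 1 point per library in BM, C, B and BC and a star for the day 0 control. From day 3 the B and BC points lie above BM and C for Wwtr1 and below them for Yap1, and on day 5 Lats2 stands at 34.0 in B and 31.6 in BC.

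The coactivator genes went different ways. Wwtr1 was higher with bFGF in 8 of 8 same-day pairs, as were 10.6% of all tested genes. Its FPKM in BM was 38.7, 44.1, 37.2 and 43.7 on days 1, 3, 5 and 7, and in C it was 35.0, 43.1, 36.9 and 39.4. The B libraries gave 42.5, 55.6, 56.2 and 65.9, and the BC libraries 39.0, 45.9, 54.1 and 49.1. From day 3 the groups did not overlap. The log2 fold change over days 1 to 7 was 0.64 (SE 0.12, edgeR adjusted p = 0.000799), and it kept its sign and passed under all settings and leave-one-out fits. Relative to the median gene it was 1.02 on day 5 and 1.00 on day 7, and on the FPKM scale the rises in B were 51.3% and 50.9%.

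Yap1 had an FPKM of 50.6, 59.8, 60.1 and 55.9 in BM and 43.4, 61.7, 55.2 and 56.8 in C on days 1, 3, 5 and 7. In B it was 46.3, 41.99, 45.6 and 31.9, and in BC 41.7, 47.6, 46.2 and 32.8. Every library with bFGF from day 3 lay below every one without. Yap1 was lower with bFGF in 8 of 8 pairs on the FPKM scale, as were 26.1% of all tested genes, and in 6 of 8 relative to the median gene. Relative to the median gene the Yap1 difference was small, with a log2 fold change of -0.08 (SE 0.08, edgeR adjusted p = 0.406) over days 1 to 7. By limma on log2(FPKM + 1) it was -0.41 (adjusted p = 0.00139), against the -0.25 of the median gene. By limma after quantile normalization, in which the median gene stood at -0.01, it was -0.36 (adjusted p = 0.00175), so the Yap1 call turns on how the libraries are scaled. On day 3 Yap1 passed in edgeR too (-0.32, adjusted p = 0.0218), and it no longer did without BM (adjusted p = 0.056), C (0.118) or B (0.185) of day 3.

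Lats2 had an FPKM of 20.5, 21.5, 17.7 and 17.8 in BM and 13.4, 14.9, 12.4 and 14.1 in C on days 1, 3, 5 and 7. The values in B were 22.2, 24.6, 34.0 and 25.2, and those in BC 14.9, 12.1, 31.6 and 20.6. BC on day 3 was the lowest library with bFGF, and on days 5 and 7 the groups of a day were apart. The log2 fold change over days 1 to 7 was 0.60 (SE 0.17, edgeR adjusted p = 0.00755). It was 1.34 on day 5 (SE 0.17, edgeR adjusted p = 1.4e-05) and 0.80 on day 7 (edgeR adjusted p = 0.000892). Lats2 is itself a known YAP/TAZ target as well as an inhibitor of YAP and TAZ.

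The TEAD factor genes showed small differences. Tead2 ranged from 63.0 to 86.8 without bFGF and from 65.2 to 89.4 with it, and these ranges overlap nearly whole. Its log2 fold change over days 1 to 7 was 0.30 (SE 0.10, edgeR adjusted p = 0.0213). It did not pass without C of day 3 (adjusted p = 0.0524), C of day 5 (0.0679), BM of day 7 (0.0594) or C of day 7 (0.0655), and it was 0.007 by limma on log2(FPKM + 1) and -0.02 after quantile normalization. Tead1 ranged from 36.0 to 42.9 without bFGF. In B it was 46.6, 42.2, 30.9 and 26.6 on days 1, 3, 5 and 7, and in BC 37.9, 30.4, 33.1 and 23.3, so the lowest values were those of day 7 with bFGF. Relative to the median gene Tead1 was at 0.02 (SE 0.08, edgeR adjusted p = 0.808), and by limma on log2(FPKM + 1) it was at -0.26 (adjusted p = 0.034), close to the -0.25 of the median gene.

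Cyr61 and Ankrd1 did not follow Ctgf. Cyr61 had an FPKM of 286.3, 411.8, 414.5 and 339.4 in BM and 138.8, 309.0, 321.7 and 225.4 in C on days 1, 3, 5 and 7. The B libraries held 340.5, 462.7, 359.4 and 464.1, and the BC libraries 161.7, 115.4, 467.1 and 396.5. The groups overlapped on days 1, 3 and 5, and on day 7 both libraries with bFGF were the higher ones. The log2 fold change over days 1 to 7 was 0.46 (SE 0.25, edgeR adjusted p = 0.124), and BC on day 3 weighed on it: without that library it was 0.64 (adjusted p = 0.00924). Under the other settings it ran from -0.22 to 0.54 and was called in none, so no direction was shown for Cyr61 over all days.

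Ankrd1 was at 40.4 on day 0, above all 16 cultured libraries. In BM it was 14.5, 11.8, 9.04 and 12.3 on days 1, 3, 5 and 7, and in C 7.5, 7.17, 7.23 and 7.88. In B it was 23.5, 23.1, 6.11 and 8.21, and in BC 15.3, 5.07, 5.75 and 4.58. B on days 1 and 3 held the highest cultured levels, and from day 5 both libraries with bFGF lay below BM. The log2 fold change over days 1 to 7 was 0.34 (SE 0.21, edgeR adjusted p = 0.169).

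**Figure D3:**
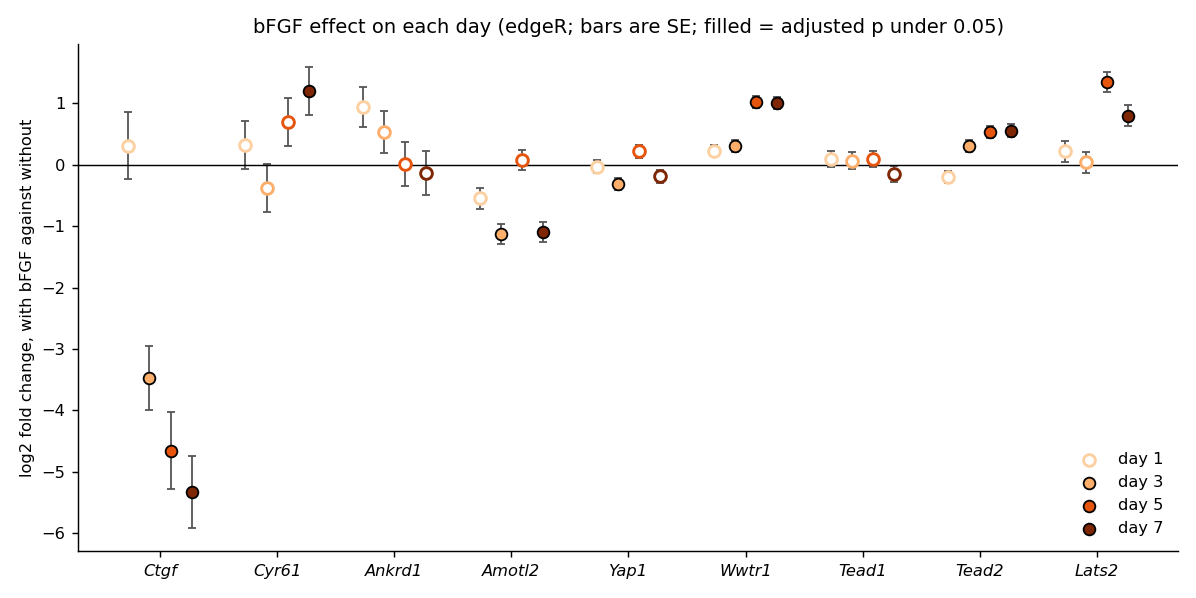
log2 fold change with bFGF against without (vertical axis) for the 9 genes (horizontal axis) on days 1, 3, 5 and 7, from the edgeR fit with bFGF by day and CHIR99021. Points are estimates relative to the median gene, bars are 1 SE, and filled points passed at an adjusted p of 0.05, which Ctgf does from day 3 with values from -3.47 to -5.32.

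Taken day by day, the number of the 9 genes that passed was 0 on day 1, 5 on day 3, 4 on day 5 and 6 on day 7. Of all tested genes, 10.7% passed on day 1, 50.4% on day 3, 75.8% on day 5 and 78.4% on day 7. On day 1, 3 of the 9 had an unadjusted p under 0.05 (Ankrd1, Amotl2 and Wwtr1). DESeq2 and each of the 3 limma fits called 1 of the 9 on that day, Amotl2, which edgeR left just outside (-0.55, adjusted p = 0.0538). With no filter (0.0315), a mean FPKM of at least 5 (0.0402) or RLE in place of TMM scaling (0.0451), edgeR called Amotl2 too. It also called Amotl2 without B (0.0163) or BC (0.0214) of day 3 or B (0.0278) or BC (0.0276) of day 5. Ankrd1 on day 1 was at 0.94 (adjusted p = 0.0939), and it passed when BC (0.00328) or B (0.00388) of day 3 was left out. Ctgf passed on day 3 (-3.47, SE 0.53), day 5 (-4.66, SE 0.63) and day 7 (-5.32, SE 0.59), with edgeR adjusted p-values of 0.000186, 1.2e-05 and 2.48e-06. Wwtr1 and Tead2 passed on the same 3 days. On day 3, Wwtr1 (0.31, adjusted p = 0.0174) no longer passed without BM (0.152) or B (0.129) of that day, and Tead2 (0.30, adjusted p = 0.0234) without BC (0.132) or C (0.145). Cyr61 passed on day 7 alone (1.198, SE 0.39, edgeR adjusted p = 0.0147), and lost the call without BC (0.127), BM (0.0724) or C (0.0599) of day 7. On day 3 Cyr61 was at -0.38 (adjusted p = 0.446), and at -1.30 (0.013) without B of that day. Ankrd1 on day 3, at 0.53 (adjusted p = 0.211), was at 1.13 (0.000558) without BC. On day 5, Cyr61 (0.69, adjusted p = 0.127) passed without B (0.0397) or BC (0.0392) of day 3 or B of day 5 (0.0257), and Yap1 (0.22, adjusted p = 0.0698) without BC of day 3 (0.0482). Yap1 on day 5 was called higher by edgeR with RLE in place of TMM scaling (0.24, adjusted p = 0.0444) and by DESeq2 (0.24, adjusted p = 0.0385). By limma on log2(FPKM + 1), where the median gene itself is lower with bFGF, Tead2 was called on none of these days. That fit did not call Wwtr1 on day 3 (0.21) or Cyr61 on day 7 (0.63), and Yap1 (-0.78) and Tead1 (-0.67) were lower on day 7. On day 5 it called Yap1 (-0.32, adjusted p = 0.00784) and Tead1 (-0.33, adjusted p = 0.0314) lower, so the direction of Yap1 on that day differs between settings.

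The change from day 1 to the mean of days 3, 5 and 7 was compared without and with bFGF. Without bFGF, 3 of the 9 genes passed, against 71.6% of all tested genes: Ctgf rose by 3.73 on the log2 scale (SE 0.43, edgeR adjusted p = 1.47e-05), Yap1 rose by 0.31 (adjusted p = 0.00537) and Tead2 fell by 0.31 (adjusted p = 0.00385). The Yap1 rise did not pass without C of day 1 (0.17, adjusted p = 0.21). Cyr61, at 0.72 (adjusted p = 0.071), passed without B or BC of day 3 or of day 5, with 0.0425 as the highest adjusted p. Amotl2, at 0.29 (adjusted p = 0.0741), passed without BC of day 3 or B or BC of day 5, with 0.0387 as the highest. With bFGF, 6 passed, against 76.2% of all tested genes. Wwtr1 rose by 0.69, Cyr61 by 0.90, Lats2 by 0.50, Tead2 by 0.35 and Yap1 by 0.25, and Ankrd1 fell by 1.02 (SE 0.27, edgeR adjusted p = 0.00345). Ctgf, at -1.06, had an adjusted p of 0.055 and passed in 9 of 16 leave-one-out fits. The calls of Cyr61 (adjusted p = 0.226), Yap1 (0.263), Tead2 (0.0698) and Lats2 (0.0749) were lost without BC of day 1, and that of Cyr61 also without B of day 1 (0.0523), B of day 3 (0.0511), BC of day 5 (0.0583) or BC of day 7 (0.0609). Tead1, at -0.17 (adjusted p = 0.162), passed without B of day 3 (0.0115). The Yap1 rise with bFGF turned to -0.12 by limma on log2(FPKM + 1), and the Cyr61 rise was 0.55 there (adjusted p = 0.133). Across settings the Tead2 rise ran from 0.068 to 0.385, and the rises of Tead2 and Cyr61 each passed in 5 of 8. Tead1 ran from -0.459 to -0.136 and was called lower in 3 of 8.

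The difference between those changes, that is, the bFGF effect on days 3 to 7 minus that on day 1, passed for 4 of the 9 genes and for 62.1% of all tested genes. It was -4.79 for Ctgf (SE 0.64, edgeR adjusted p = 4.99e-05), 0.55 for Wwtr1 (SE 0.11, adjusted p = 0.00102), 0.66 for Tead2 (SE 0.11, adjusted p = 0.000355) and 0.51 for Lats2 (SE 0.19, adjusted p = 0.0376). By limma on log2(FPKM + 1) the Wwtr1 difference was 0.26 (adjusted p = 0.0585) and that of Lats2 0.39 (adjusted p = 0.0737), and neither passed. Lats2 also missed the threshold among genes with a mean FPKM of 5 or more (adjusted p = 0.0525). Lats2 no longer passed without BC (0.113), BM (0.135) or B (0.0635) of day 1, BC of day 5 (0.0531), or BC (0.0638) or BM (0.0512) of day 7. Ankrd1, at -0.80 (adjusted p = 0.0911), passed without BC (0.0175) or B (0.000439) of day 3, and in 2 of 8 settings. The difference of Yap1 ran from -0.431 to -0.02 across settings and passed in 3 of 8. That of Tead1 ran from -0.377 to -0.049 and passed in 2 of 8. For Amotl2 the difference was -0.17 (adjusted p = 0.456), and the 3 limma fits called it, with -0.46 (adjusted p = 0.0443) on log2(FPKM + 1) and -0.50 (adjusted p = 0.0482) after quantile normalization, so whether its lower level with bFGF differed between day 1 and later depends on the scaling and the tool.

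Set against the day 0 control, a single library that allows values only, the 4 target genes moved apart. On day 7 Ctgf was at 11.4 times its day 0 level in BM and 7.17 times in C, and at 0.218 and 0.1 times in B and BC. Amotl2 was at 2.47 times in BM and 1.86 in C, against 0.788 with bFGF and 0.596 with both. Ankrd1 was below day 0 in each treatment, at 0.303 times in BM, at 0.195 with CHIR99021, at 0.203 with bFGF and at 0.113 with both. Cyr61 was at 1.39 times in BM, 0.922 times in C, with B at 1.90 times and BC at 1.62. Among the other genes, Wwtr1 was at 1.38 times in BM and 2.08 in B, Lats2 at 1.48 and 2.10, Yap1 at 1.33 and 0.758, Tead1 at 0.977 and 0.616, and Tead2 at 1.28 and 1.24.

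The comparison of C with BM and of BC with B asks what CHIR99021 added. In the fit with bFGF, CHIR99021 and day as terms, edgeR called 0 of the 9 genes and 0.337% of all tested genes. At an unadjusted p under 0.05 there were 4 of the 9: Ankrd1 (-0.78, SE 0.21), Cyr61 (-0.58, SE 0.25), Amotl2 (-0.45, SE 0.16) and Lats2 (-0.45, SE 0.17). DESeq2 called 1 of the 9, Ankrd1 (-0.79, adjusted p = 0.0211), and limma none on any of 3 scales. That fit holds the day-by-day change of the bFGF effect in its residual spread, a biological coefficient of variation of 24.7%. The fit that gives each day its own bFGF effect had a coefficient of 10%. Reading the CHIR99021 effect from that fit was added after the data had been seen. In that fit 4 of the 9 genes were lower with CHIR99021, against 9.79% of all tested genes lower and 19.5% called in either direction. They were Amotl2 (-0.46, SE 0.08, edgeR adjusted p = 0.00363), Lats2 (-0.47, SE 0.08, adjusted p = 0.00361), Ankrd1 (-0.79, SE 0.17, adjusted p = 0.00964) and Cyr61 (-0.65, SE 0.20, adjusted p = 0.0404). The Cyr61 call was lost in 10 of 16 leave-one-out fits, with adjusted p-values up to 0.0841. None of the other 5 was called by edgeR over all tested genes: Ctgf was at -0.48 (adjusted p = 0.219), Wwtr1 at -0.15 (0.0509, but 0.0311 by DESeq2 and 0.0489 among genes with a mean FPKM of 5 or more), Tead1 at -0.10 (0.325), Tead2 at -0.05 (0.533) and Yap1 at -0.03 (0.692).

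**Figure D4:**
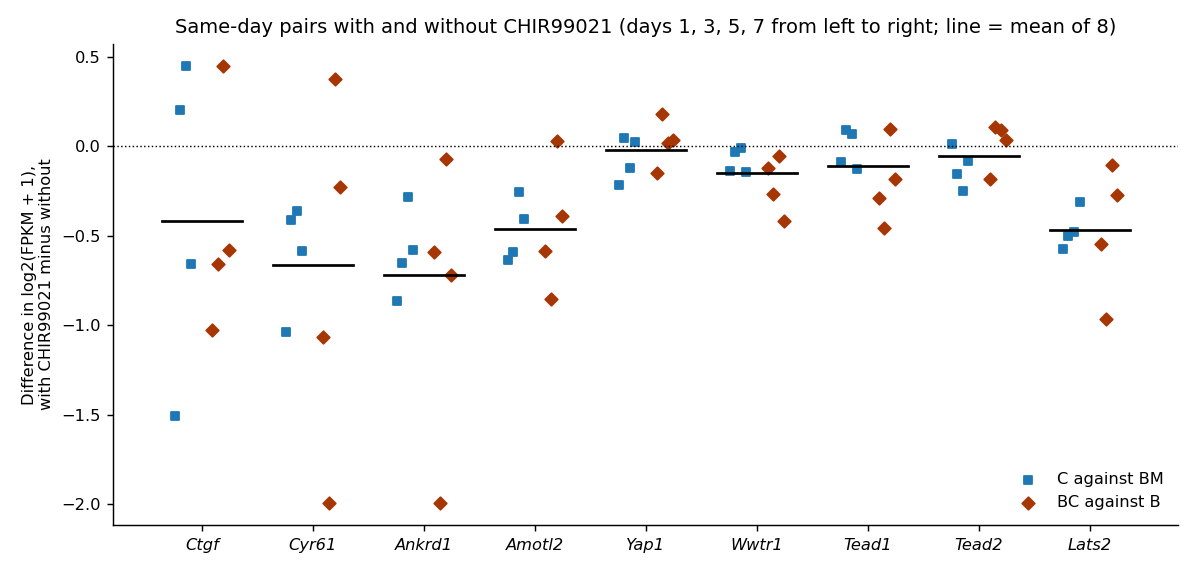
Difference in log2(FPKM + 1) with CHIR99021 minus without (vertical axis) for the 9 genes (horizontal axis), with 4 pairs of C against BM (squares) and 4 of BC against B (diamonds) in the order of days 1, 3, 5 and 7. The line is the mean of the 8 pairs, which is -0.72 for Ankrd1 and -0.47 for Lats2, both below 0 in every pair.

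By pairs of libraries of the same day, Ankrd1 and Lats2 were lower with CHIR99021 in 8 of 8, as was Wwtr1 by a mean of 0.15 (-0.15 ± 0.14 SD, n = 8 pairs), and 7.0% of all tested genes were lower in 8 of 8. Amotl2 and Cyr61 were lower in 7 of 8 (16% of all tested genes were lower in at least 7), with the pair of BC and B on day 5 as the exception for both. The mean differences were -0.72 ± 0.57 (SD, n = 8 pairs) for Ankrd1, -0.47 ± 0.26 for Lats2, -0.46 ± 0.27 for Amotl2 and -0.67 ± 0.71 for Cyr61. The largest fell on day 3 with bFGF, when Cyr61 was at 462.7 in B and 115.4 in BC, and Ankrd1 at 23.1 and 5.07. The median gene differed by 0.0 on average between the same pairs, so these differences do not depend on the scaling as those of bFGF do. Ctgf was lower with CHIR99021 in 5 of 8 pairs and on both pairs of day 1, where it was 1.03 in C against 4.76 in BM and 1.86 in BC against 4.82 in B.

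Fitted in the 8 libraries without bFGF alone, the same 4 genes were lower with CHIR99021 (10.6% of genes tested there were lower), with adjusted p-values from 0.000633 for Lats2 to 0.00408 for Cyr61. In the 8 with bFGF alone none of the 9 passed (2.73% of genes tested there were lower). The interaction of bFGF and CHIR99021, which tests whether the CHIR99021 effect differs with bFGF, was called for 0 of the 9 genes by edgeR, DESeq2 and limma, and for 0.00887% of all tested genes in edgeR. None of the 9 had an unadjusted p under 0.05 for it. The fit with the interaction also held the day-by-day change of the bFGF effect in its residual spread (25.4%). The SE of the interaction was 0.34 for Amotl2, 0.35 for Lats2, 0.43 for Ankrd1 and 0.52 for Cyr61, so smaller interactions could not be seen. Within that fit the CHIR99021 effect without bFGF was called for 0 of the 9 (0.0% of all tested genes) and with bFGF for 0 of the 9 (0.00887%), and DESeq2 and limma also called 0. At an unadjusted p under 0.05 there were 0 and 1 of the 9, the 1 being Ankrd1. Its estimates were -0.63 (SE 0.30) without bFGF and -0.94 (SE 0.30) with it, and those of Lats2 were -0.49 (SE 0.25) and -0.41 (SE 0.25).

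**Figure D5:**
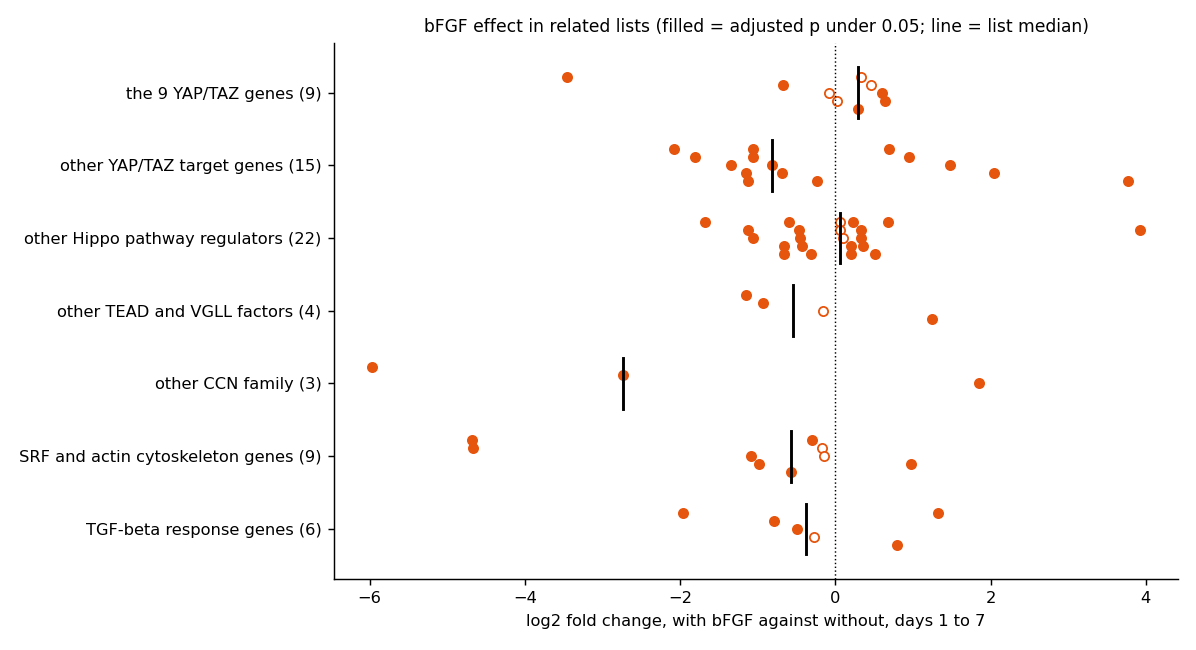
log2 fold change with bFGF against without over days 1 to 7 (horizontal axis, edgeR) for the 9 genes and 6 related gene lists (vertical axis, number tested in brackets). Each point is a gene, filled where the adjusted p was under 0.05, and the line is the list's median, from -2.73 for the other CCN genes to 0.30 for the 9 genes.

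Related genes were read from lists chosen with earlier results of these data known. Of 17 other genes known as YAP/TAZ targets, 15 were tested. With bFGF 10 were lower and 5 higher, with a median log2 fold change of -0.81 against -0.002 over all genes, of which 33.9% were lower and 34.6% higher. The lower ones included Ccdc80 (-2.09, SE 0.38), the cadherin-pathway modulator Fjx1 (-1.81, SE 0.46) and Crim1 (-1.34, SE 0.20), a transmembrane protein that binds growth factors. Crim1 had a median FPKM of 168.8 without bFGF and 41.4 with it. The higher ones included Igfbp3 (3.77, SE 0.39), an IGF-binding protein, Gadd45a (2.04, SE 0.44), a stress-response gene, and F3 (1.48, SE 0.26), which encodes tissue factor. Igfbp3 was at 39.2 on day 0, between 0.77 and 20.3 in BM and C and between 27.3 and 61.8 in B and BC. These target genes did not share a direction.

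The CCN family to which Ctgf and Cyr61 belong was divided in the same way. Wisp2 was lower with bFGF (-5.97, SE 0.47, edgeR adjusted p = 1.81e-05), at 21.7 to 293.3 in BM and C and 0.25 to 10.43 in B and BC. Wisp1, a known Wnt target, was lower too (-2.73, SE 0.36), and Nov was higher (1.86, SE 0.28). Wisp3 did not pass the filter.

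Of 22 tested Hippo regulators 9 were higher, 10 lower and 3 not called, against 68.4% of all tested genes called, with a median of 0.06. Nf2, which encodes the upstream activator Merlin, was lower (-1.06, SE 0.25), as were the protocadherin gene Fat4 (-1.67, SE 0.32) and the kinase gene Taok2 (-1.12, SE 0.21). Wwc1, which encodes the Hippo activator KIBRA, was higher (3.93, SE 0.56) but rare, at no more than 0.3 without bFGF and 0.43 to 6.6 with it. Mob1b (0.52, SE 0.15), a LATS cofactor gene, and Csnk1e (0.68, SE 0.12), a casein kinase gene, were higher as well. Of the remaining TEAD and VGLL genes, Tead3 (-1.16, SE 0.17) and Vgll3 (-0.94, SE 0.14), a TEAD cofactor gene, were lower, Tead4 was higher (1.25, SE 0.19) and Vgll4 was not called. Vgll1 was listed in no library.

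Actin cytoskeleton genes that SRF controls share many stimuli with YAP/TAZ targets. Of 9 tested, 6 were lower and 1 higher with bFGF (33.9% and 34.6% of all tested genes), with a median of -0.58. Acta2, smooth muscle actin, was lower (-4.69, SE 0.51), at 22.3 to 376.1 in BM and C and 1.14 to 15.4 in B and BC. Myl9, a myosin light chain, was lower (-4.67, SE 0.43), as was the actin crosslinker Flna (-1.08, SE 0.18), and Fhl2, a cofactor of nuclear receptors and SRF, was higher (0.98, SE 0.17). Acta2 is also a pericyte and myofibroblast gene, and the pericyte and fibroblast list gave the sums stated above, whose part in this result was not tested. In the fit with bFGF by day, 8 of these 9 genes were lower with CHIR99021, with a median of -0.48 against 0.009 over all genes, of which 9.79% were lower. Among them were Acta2 (-0.83, edgeR adjusted p = 0.00123), Tpm1 (-0.57, adjusted p = 0.000357) and Vcl (-0.31, adjusted p = 0.0037), which encode an actin, a tropomyosin and vinculin, and the exception was Srf itself (-0.13, adjusted p = 0.0749). These 3 and Srf were named after their values had been seen. The corresponding counts with CHIR99021 were 4 lower and 2 higher of 15 other targets, and 6 lower and 1 higher of 22 Hippo regulators, where 9.79% of all tested genes were lower and 9.72% higher.

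Ctgf is also a TGF-beta response gene. Of 6 other such genes tested, 3 were lower with bFGF, 2 higher and 1 not called, against 68.4% of all tested genes called, with a median of -0.38. Pmepa1, a feedback inhibitor of TGF-beta signalling, was lower (-1.96, SE 0.34). Its FPKM in BM was 9.78, 21.2, 37.7 and 84.7 on days 1, 3, 5 and 7, against 4.19 to 7.72 in B and BC, a course like that of Ctgf. Skil was lower (-0.50, SE 0.13), while Tgif1 (1.33, SE 0.21) and Smad7 (0.80, SE 0.19) were higher.

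Likeness of pattern was described by Pearson's r of log2(FPKM + 1) over all 17 libraries against 11258 other genes that reached a mean of 1, in libraries that share treatments and days. The genes most like Ctgf were Wnt7b (r = 0.965), Pmepa1 (0.964) and Tns3 (0.956). For Amotl2 they were Kif1b (0.933), D5Ertd579e (0.932) and Krit1 (0.912), and Yap1 ranked 19th (0.851). For Ankrd1 they included Amigo2 (0.94) and N4bp3 (0.877), and for Cyr61 Snx18 (0.87), Syf2 (0.84) and Cript (0.812), with Lats2 at rank 19 (0.711). Ctgf and Cyr61 had an r of 0.145, Ctgf and Ankrd1 of 0.14, and Cyr61 and Ankrd1 of 0.051, whereas Ctgf and Amotl2 had 0.686. Among the 4 target genes the courses of Ctgf and Amotl2 were thus the most alike. Many genes outside these 4 were nonetheless more like Ctgf than Amotl2 was, and many were more like Amotl2 than Ctgf was. Yap1 was such a gene for both, with an r of 0.773 with Ctgf and 0.851 with Amotl2. An r of 0.686 therefore does not set this pair apart from other genes in these libraries.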

How the data were processed

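Poly-A RNA of 17 mNRPC libraries was sequenced on the BGISEQ-500. The submitters' processing notes list mm10, Bowtie2 and RSEM, and the study's methods name Bowtie 2 and eXpress. Versions are not given in the sources used here. The files deposited by the authors give, per gene and library, an expected count (an estimate that need not be whole) and an FPKM value. Absent genes were set to 0. Expected counts were rounded, and edgeR 4.0.16 (R 4.3.3) fitted them by glmQLFit and glmQLFTest after TMM scaling, with Benjamini-Hochberg adjustment over the 11272 genes whose mean FPKM reached 1, a threshold of 0.05, and day 0 left out. The models held bFGF, CHIR99021 and day, these with the interaction of bFGF and CHIR99021, or bFGF by day with CHIR99021, leaving 10, 9 and 7 residual degrees of freedom. DESeq2 1.42.0 and limma 3.58.1 served as alternatives. On simulated data, edgeR recovered 100% of genes changed by 1 on the log2 scale in the bFGF effect over days 1 to 7 and 87% on day 1, over 11272 genes. The simulations held 200 changed genes each and gave 16 and 11 false calls. Their spread was set below the 24.7% of the real fit over days 1 to 7, and far fewer genes changed. These shares therefore do not tell how much the fits of the real data recovered. The members and lists were chosen with earlier results of these data known. Named were all 9 genes, from each list at most the 3 largest rises and 3 largest falls with bFGF, and for each target gene the 3 genes most like it. Some genes that this rule or the marker lists hold are not reported here.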

Additional observations from a re-analysis of the deposited data

Results flagged for a closer look

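Of the 9 genes, 4 had a bFGF effect that differed between day 1 and days 3 to 7 in the test of the difference itself (edgeR, adjusted over 11272 genes). The log2 difference was -4.79 for Ctgf, 0.55 for Wwtr1, 0.66 for Tead2 and 0.51 for Lats2. For Ctgf, the effect was 0.31 on day 1 and -5.32 on day 7. For Wwtr1 it was 0.23 on day 1 and 1.00 on day 7, for Tead2 -0.20 and 0.56, and for Lats2 0.22 and 0.80. The Lats2 difference was lost when any of 6 single libraries was left out. By limma on log2(FPKM + 1) the differences of Wwtr1 (0.26, adjusted p = 0.0585) and Lats2 (0.39, adjusted p = 0.0737) did not pass, while those of Ctgf and Tead2 did. In that limma fit 6 of the 9 passed, 1 higher and 5 lower, against 65.8% of all tested genes.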

How the results depend on the processing

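No paired analysis was possible because the libraries carry no replicate numbers. The same-day pairs of the report match libraries by day and treatment, and day is a term of the fits it gives. Of the values of single genes under other settings, 803 kept direction and side of the threshold, 46 gained a call, 28 lost it and 50 changed sign. With 1 library left out these numbers were 1724, 32, 39 and 77. Ctgf, Amotl2, Wwtr1 and Lats2 were called for bFGF over days 1 to 7 in 10 of 10 settings and Tead2 in 6 of 10.

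With bFGF over days 1 to 7 the median gene stood at -0.25 on log2(FPKM + 1) and -0.29 on log2(FPKM + 0.1). On quantile-normalized values it stood at -0.01, near that of edgeR. Most sign changes came with limma on these scales. On log2(FPKM + 1) and log2(FPKM + 0.1), in this order, they were for bFGF Tead1 over days 1 to 7 (-0.259 and -0.266), Lats2 (-0.042 and -0.048) and Tead1 (-0.051 and -0.053) on day 3, and Amotl2 (-0.388 and -0.391), Ankrd1 (-0.392 and -0.441), Yap1 (-0.322 and -0.328) and Tead1 (-0.326 and -0.335) on day 5. They were also the change with bFGF of Yap1 (-0.115 and -0.118) and Amotl2 (-0.168 and -0.172), the difference of Cyr61 between day 1 and later (-0.176 and -0.177), the interaction of Cyr61 (-0.127 and -0.128) and Lats2 (-0.006 and -0.003), and the CHIR99021 effect without bFGF of Tead1 (-0.015 and -0.015). Ankrd1 over days 1 to 7 was at -0.005 on log2(FPKM + 0.1). On quantile-normalized values the bFGF effect changed sign over days 1 to 7 for Cyr61 (-0.221), Tead1 (-0.145) and Tead2 (-0.019), on day 3 for Tead1 (-0.024), on day 5 for Amotl2 (-0.471), Cyr61 (-0.346), Tead1 (-0.147) and Yap1 (-0.244), and on day 7 for Cyr61 (-0.018), Tead2 (-0.025) and Ankrd1 (0.059). So did the change with bFGF of Amotl2 (-0.086), the difference of Cyr61 between day 1 and later (-0.65) and the CHIR99021 effect without bFGF of Tead1 (-0.006). With a mean FPKM of at least 5 they were Amotl2 (-0.049), Ankrd1 (-0.115) and Tead1 (-0.032) on day 5 and Tead1 over days 1 to 7 (-0.051), which was at -0.005 without day 1. For CHIR99021, Yap1 was at 0.02 without day 1, Tead1 at 0.004 in libraries without bFGF, and Tead2 at 0.019 and Yap1 at 0.024 in those with it.

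With 1 library left out, sign changes touched only values that were not called with all libraries. The bFGF effect ranged from -0.035 to 0.06 for Tead1 over days 1 to 7. On day 1 it ranged from -0.347 to 1.555 for Ctgf, -0.052 to 0.178 for Tead1 and -0.168 to 0.057 for Yap1. On day 3 it ranged from -0.474 to 1.133 for Ankrd1, -1.302 to 0.25 for Cyr61, -0.284 to 0.316 for Lats2 and -0.172 to 0.284 for Tead1. On day 5 it ranged from -0.214 to 0.318 for Amotl2, -0.387 to 0.382 for Ankrd1 and -0.03 to 0.196 for Tead1. The difference between day 1 and later ranged from -0.116 to 0.469 for Cyr61, -0.184 to 0.047 for Tead1 and -0.161 to 0.064 for Yap1, and the change without bFGF from -0.136 to 0.044 for Lats2. The CHIR99021 effect ranged from -0.726 to 0.014 for Ctgf, -0.104 to 0.016 for Tead2 and -0.076 to 0.002 for Yap1. With bFGF it ranged from -1.664 to 0.45 for Ctgf, -0.049 to 0.167 for Tead2 and -0.062 to 0.095 for Yap1, and without bFGF from -0.569 to 0.58 for Ctgf, -0.032 to 0.063 for Tead1 and -0.172 to 0.039 for Wwtr1. The interaction ranged from -0.259 to 0.24 for Amotl2, -1.523 to 0.675 for Ctgf, -0.297 to 0.408 for Cyr61 and -0.205 to 0.298 for Lats2.

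On log2(FPKM + 1) the genes called for bFGF split into 2289 higher and 5686 lower, against 3896 and 3817 in edgeR.

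Genes called for bFGF numbered 4779 without a day term. For CHIR99021 the 38 genes called became 22 with no filter, 281 by DESeq2, 72 on quantile-normalized values, 0 without a day term, 24 without day 1, 2292 in libraries without bFGF and 549 in those with it, and 1 to 28 with 1 library left out. Of the 9 genes, 1 was called by DESeq2 and 4 in the libraries without bFGF. The 1 interaction gene became 5 by DESeq2, 2 without day 1 and 0 by limma on each of 3 scales or without a day term, and 0 to 1 with 1 library left out. The CHIR99021 effect without bFGF, called for 0 genes, was called for 58 by DESeq2, 1 by limma with either pseudocount and 2 on quantile-normalized values. The effect with bFGF, called for 1 gene, was called for 122 by DESeq2, 10 without day 1, 0 by limma on each scale or without a day term, and 0 to 8 with 1 library left out. Of the 9 genes on day 1, 1 was called under each of 7 other settings (no filter, a mean FPKM of at least 5, RLE, DESeq2 and 3 limma fits) and 0 to 2 with 1 library left out. On day 3, 3 were called by limma with either pseudocount, and 3 to 5 with 1 library left out. For the change without bFGF 6 were called on quantile-normalized values, and 2 to 5 with 1 library left out, and for the change with bFGF 3 to 7. Genes called on day 1 ranged from 145 to 1778 with 1 library left out. Single libraries per condition limit what these data can show about the spread between cultures.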
